A study of Rattus norvegicus with 12 samples.

Results

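The genes that break down heme, make it and handle the iron it carries were followed in FaO cells, a rat hepatoma line that keeps many hepatocyte functions. The set was defined by function as 10 genes: Hmox1, Blvra, Blvrb, Fth1, Ftl1, Tfrc, Alas1, Fech, Ireb2 and Aco1. It was represented by 10 of the 22523 probes on the array, which covered 9 of the 10 genes (Fech by 2 probes), and no named probe was found for Alas1. RNA was hybridised to 12 Illumina rat arrays, each loaded with RNA pooled from 3 wells. Cells grown in medium with low serum received 500 µM α-lipoic acid (α-LA), renewed daily, and were taken at 6, 18, 24, 30, 42, 48 and 72 h, with 1 array per time. The study grouped the arrays of 18, 24 and 30 h as early and those of 42, 48 and 72 h as late (n = 3 each), a grouping that came from clustering the same arrays, so that different times stand in for replicates. Another 2 arrays came from cells given 0.1 µM thapsigargin (TG), an inhibitor of the calcium pump of the endoplasmic reticulum. Their titles give 18 and 24 h, whereas the treatment protocol gives 6 and 18 h, so the hours of TG are not settled. Untreated control cells, whose harvest time is not given, gave 3 arrays. All comparisons with control share these 3 arrays. Nothing in the labels says that they came from separate cultures, so the differences among them may be technical. The limma tests below pooled the spread within all fitted groups, the treated ones included. Arrays of an α-LA group differ in hours, so this pooled spread also holds any change over time within a group. Variation between separate control cultures may be missing from the p-values.

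Heme oxygenase opens the heme ring and releases ferrous iron, carbon monoxide and biliverdin, which biliverdin reductase converts to bilirubin. Iron set free in this way is stored in ferritin, a shell of heavy and light chains, or exported. Heme itself is built from glycine and succinyl-CoA in a pathway that starts with 5-aminolevulinate synthase and ends when ferrochelatase inserts iron, and the liver uses much of it for cytochrome P450 enzymes. Ferritin chains and the transferrin receptor are also controlled after transcription by iron regulatory proteins, which bind their mRNAs when iron is scarce.

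Hmox1 and Ftl1 were higher, and Blvra and Fech lower, in α-LA-treated cells in both the early and the late group. Hmox1 rose 3.87-fold early and 3.94-fold late, the light ferritin chain Ftl1 rose 1.94-fold and 1.62-fold, and Fech fell by 0.79 and 0.51 on the log2 scale on the brighter of its probes. Of the 10 member probes, 5 passed the test early in treatment, with 2 raised and 3 lowered. Late in treatment 6 passed, with 2 raised and 4 lowered, Tfrc having joined those that fell. As Fech has 2 probes, these were 4 of the 9 genes early and 5 of the 9 late. The test was limma on log2 signals with Benjamini-Hochberg adjustment over 9193 tested probes and a threshold of 0.05. Over all tested probes, 32.3% were called early and 36.7% late, so the count of called members must be read against a broad response. The median change of the member probes was -0.07 early and -0.09 late, beside 0.01 and 0.02 for all tested probes.

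Hmox1 encodes the inducible heme oxygenase. Its normalized signal was 568 at 6 h, 1196 at 18 h, 1631 at 24 h, 1386 at 30 h, 1548 at 42 h, 1370 at 48 h and 1338 at 72 h of α-LA, and 1304 and 1214 in TG-treated cells, against 386, 347 and 347 in control cells. Every treated array lay above every control array, the 6 h array was intermediate, the 18 h array was the lowest and the 24 h array the highest of those from 18 h on, and the early and late groups overlapped. The log2 change was 1.95 ± 0.12 (SE, n = 3 against 3, limma adjusted p = 1.43e-06) early and 1.98 ± 0.12 (adjusted p = 7.12e-07) late. Late minus early was 0.02, with a 95% confidence interval from -0.24 to 0.29 (limma adjusted p = 0.931). At 6 h the signal was 1.58-fold the control mean, from 1 array and without a test. Hmox2, the constitutive heme oxygenase, had signals from 219 to 248 on the 7 α-LA arrays, against 248 to 266 on the control arrays, and passed the test in neither α-LA group (limma adjusted p = 0.0795 early and 0.319 late).

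**Figure D1:**
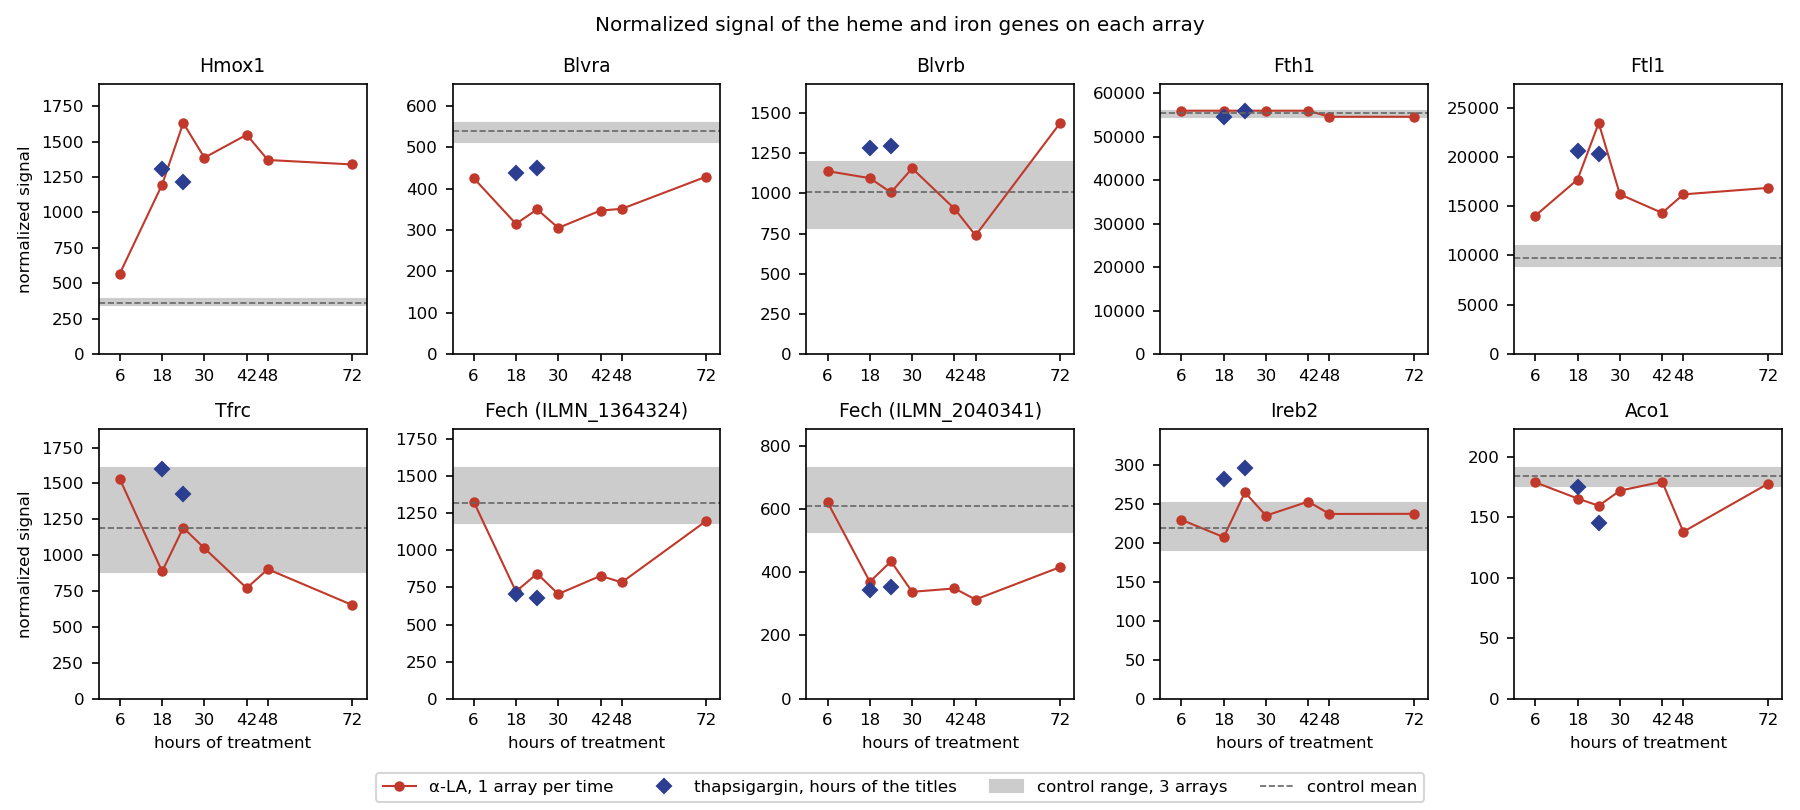
Normalized signal (linear, vertical axis, from 0) of each member probe against hours of treatment. Red points joined by lines are single α-LA arrays, blue diamonds the 2 TG arrays at the hours of their titles, the grey band the range and the dashed line the mean of 3 control arrays. Hmox1 is at 568 at 6 h and between 1196 and 1631 from 18 h on, above a control range of 347 to 386, whereas Fth1 sits at the top of the scale on every array.

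Blvra and Blvrb encode the biliverdin reductases that act on the product of heme oxygenase. Blvra signal was 426, 315, 350, 305, 347, 351 and 429 at 6, 18, 24, 30, 42, 48 and 72 h of α-LA and 439 and 451 with TG, against 559, 512 and 550 in control cells. All treated arrays were below all control arrays. The fall was 0.74 ± 0.11 on the log2 scale early (SE, n = 3, log2 change -0.74, limma adjusted p = 0.000312) and 0.53 ± 0.11 late (log2 change -0.53, adjusted p = 0.00226). Blvrb signal lay between 1006 and 1156 on the early arrays and at 905, 738 and 1438 on the late arrays, against 786, 1192 and 1042 on the control arrays. The groups overlapped, the 72 h array was the highest of all 12, and the log2 changes of 0.13 and -0.01 did not pass the test (limma adjusted p = 0.711 and 0.981). Hmox1 and Blvra, which act in successive steps, thus had changes of opposite sign.

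The upstream sequence of Blvra and of Fech, the members that were lower in both α-LA groups, is shown with 3 short motifs searched on both strands: GGGCGG (the GC box bound by SP1), TGACNNNGC (the core of the antioxidant response element) and TGATGNAA (the core of the composite element bound by C/EBP and ATF proteins). Capitals mark matches, written 5′ to 3′ along the strand of the gene, over the 250 bases before its annotated start (RefSeq, GRCr8).
Blvra, chr3:134802660-134802909, plus strand: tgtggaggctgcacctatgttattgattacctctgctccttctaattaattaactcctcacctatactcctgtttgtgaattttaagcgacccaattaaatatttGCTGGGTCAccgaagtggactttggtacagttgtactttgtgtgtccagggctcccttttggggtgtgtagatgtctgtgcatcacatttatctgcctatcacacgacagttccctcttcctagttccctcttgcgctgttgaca
Fech, chr18:60248526-60248775, minus strand: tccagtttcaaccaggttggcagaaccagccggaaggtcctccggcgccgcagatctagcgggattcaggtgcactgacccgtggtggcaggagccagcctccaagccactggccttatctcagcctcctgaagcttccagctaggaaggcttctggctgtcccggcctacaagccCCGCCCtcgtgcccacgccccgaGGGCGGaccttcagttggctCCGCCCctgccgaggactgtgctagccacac
Blvra held 1 match to the antioxidant response element core, which occurred in 10.1% of 33469 rat promoter windows of this length, and no GC box. Fech held 3 GC boxes, a motif present in 30.5% of windows. Promoter windows were at hand for 7 of the 10 members, of which 4 (Aco1, Blvrb, Fech and Ireb2) held a GC box and none the composite core, which 3.4% of all windows held. The members without a window were Hmox1, Fth1 and Ftl1, so the 2 genes that rose with α-LA were not searched. A match describes the letters in the window and not a bound site.

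Ferritin stores iron in a form that reacts little with peroxide. Ftl1, its light chain, had signals of 14033 at 6 h, 17710 at 18 h, 23444 at 24 h, 16202 at 30 h, 14317 at 42 h, 16202 at 48 h and 16857 at 72 h of α-LA, and of 20639 and 20309 with TG, against 8898, 10918 and 9466 in control cells. All 9 treated arrays were above all control arrays, the 6 h array included, and the 24 h array was the highest. The log2 change was 0.96 ± 0.14 early (SE, n = 3, limma adjusted p = 0.000342) and 0.70 ± 0.14 late (adjusted p = 0.0022). Fth1, the heavy chain with the ferroxidase activity, had a signal of 54571 or 55971 on each array. These were the highest 2 values that quantile normalization gives to any array, so that the probe was at the ceiling everywhere and a change of Fth1 cannot be read from these data. Ferritin genes have many processed copies in the genome, and whether the probes tell them apart was not tested.

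Tfrc encodes the transferrin receptor that takes up transferrin-bound iron. Its signal was 1530 at 6 h, then 886, 1191 and 1048 on the early and 770, 902 and 652 on the late α-LA arrays, and 1602 and 1427 with TG, against 1610, 885 and 1077 in control cells. The lowest values were those of 72 and 42 h, but the 48 h array overlapped the controls, among which the first was much the highest. The late change was -0.59 ± 0.20 (SE, n = 3, limma adjusted p = 0.0382) and the early change -0.16 ± 0.20 (adjusted p = 0.61). The late call was lost without control replicate 1, where the log2 change was -0.35 (limma adjusted p = 0.139). It was also lost without control replicate 3 (0.0639), the 42 h array (0.09) or the 72 h array (0.119), and in other settings given below. Late minus early was -0.43, with an interval from -0.87 to 0.01 (limma adjusted p = 0.18).

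Fech encodes ferrochelatase, which puts iron into protoporphyrin. On the probe ILMN_1364324 its signal was 1329 at 6 h, 723, 843 and 706 on the early and 828, 784 and 1200 on the late α-LA arrays, and 706 and 676 with TG, against 1559, 1211 and 1187 in control cells. On the probe ILMN_2040341 it was 621 at 6 h, 370, 434 and 338 on the early and 348, 314 and 416 on the late arrays, and 342 and 354 with TG, against 731, 573 and 528 in control cells. Both probes were within the control range at 6 h and below it from 18 to 48 h, but at 72 h the brighter probe was back within the control range and the dimmer one was not. The log2 changes were -0.79 ± 0.16 and -0.68 ± 0.15 in the early group (SE, n = 3, limma adjusted p = 0.00321 and 0.00457). In the late group they were -0.51 ± 0.16 and -0.76 ± 0.15 (limma adjusted p = 0.0297 and 0.00178). The late call of the brighter probe was lost without control replicate 1 (limma adjusted p = 0.114), without the 42 h array (0.111) and without the 48 h array (0.122), whereas the dimmer probe kept its call in each of these.

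Ireb2 and Aco1 encode the iron regulatory proteins IRP2 and IRP1, of which IRP1 also serves as cytosolic aconitase. Ireb2 signal lay between 207 and 264 on the α-LA arrays from 18 h on and was 281 and 296 with TG, against 251, 191 and 214 in control cells. The α-LA arrays overlapped the controls (log2 change 0.11 early and 0.16 late, limma adjusted p = 0.548 and 0.349), and both TG arrays lay above them. Aco1 was dim, with signals of 138 to 180 on the α-LA arrays from 18 h on and 175 and 145 with TG, against 176, 186 and 191 in control cells, close to the 150 taken as the limit of detection. Its log2 change was -0.15 early and -0.17 late (limma adjusted p = 0.33 and 0.263).

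**Figure D2:**
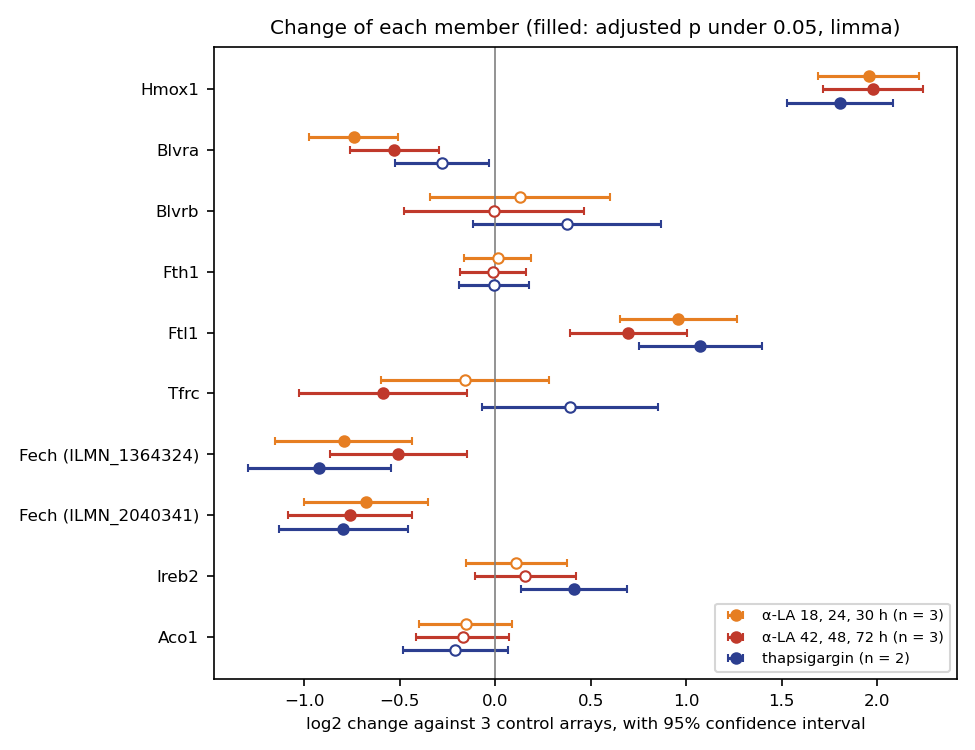
Change of each member probe against 3 control arrays (horizontal axis, log2) in early α-LA (orange), late α-LA (red) and TG (blue), with the 95% confidence interval from limma. Filled points passed the threshold. Hmox1 lies at 1.95, 1.98 and 1.81, Ftl1 between 0.70 and 1.07, and both Fech probes lie below 0 in all 3 comparisons.

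The induction of Hmox1 was set against the change of each other member on the same arrays, as the log2 ratio of Hmox1 to that member in the 6 α-LA arrays from 18 h on and the 3 control arrays. The Hmox1 change of 1.97 over these arrays exceeded that of Ftl1 by 1.14, that of Ireb2 by 1.83, that of Blvrb by 1.91, that of Aco1 by 2.13, that of Tfrc by 2.34, that of Blvra by 2.60 and that of Fech by 2.62 on the log2 scale. In each case the ratios on the α-LA arrays did not overlap those on the control arrays. The two-sided exact permutation p was 0.0119 for each, and also after adjustment over the 8 members compared, which is the smallest value that 6 against 3 arrays allow. The corresponding difference for Fth1, 1.97, has no reading because that probe was at the ceiling. All these ratios share the Hmox1 signal, which by itself did not overlap the controls. They are therefore not separate results about the other members, and the share of all probes with such a ratio was not computed. When the 6 arrays were treated as 1 group, 5 of the 10 member probes were called (30.6% of all probes), with changes of 1.97 for Hmox1, 0.83 for Ftl1, -0.64 for Blvra and -0.65 and -0.72 for the Fech probes. Without control replicate 1 the brighter Fech probe no longer passed (-0.52, limma adjusted p = 0.0599).

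Between the late and the early group none of the 10 member probes passed the limma test, where 13.7% of all probes did (6.43% higher and 7.23% lower). At an unadjusted p under 0.05 none passed either, and their median difference was -0.02, beside -0.00 over all probes.

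TG was included in the study as an agent that causes stress of the endoplasmic reticulum. Of the member probes 5 passed (3 higher and 2 lower), against 37.9% of all probes, with a median change of 0.18 beside 0.01 over all probes. Both lower probes were of Fech, so that 4 of the 9 genes were called. Hmox1 rose 3.50-fold (log2 change 1.81 ± 0.13, SE, n = 2 against 3, limma adjusted p = 5.73e-07) and Ftl1 2.11-fold (1.07 ± 0.15, adjusted p = 8.6e-05). The Fech probes fell by 0.92 and 0.80 on the log2 scale (limma adjusted p = 0.000956 and 0.0013). Ireb2 was 1.33-fold higher (log2 change 0.41, limma adjusted p = 0.0221), a call lost without control replicate 2 (0.0867), without control replicate 3 (0.0595) and without either TG array (0.0784 and 0.136). Blvra had a change of -0.28 (limma adjusted p = 0.0688) and Tfrc one of 0.39 (adjusted p = 0.177), which became 0.63 (adjusted p = 0.0126) without control replicate 1.

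The α-LA arrays of 18 and 24 h were set directly against the TG arrays. This comparison, called α-LA minus TG below, was fitted separately and left out the 30 h and late arrays. Blvra was the only member probe to pass (24.9% of all probes did), with 315 and 350 in α-LA-treated and 439 and 451 in TG-treated cells, a log2 difference of -0.42 ± 0.10 (SE, n = 2 each, limma adjusted p = 0.0174). This call was lost without either TG array (limma adjusted p = 0.088 and 0.109) and without the 18 h array (0.0711). For Hmox1 the difference was 0.15 (95% confidence interval -0.18 to 0.48), for Ftl1 -0.01 (-0.34 to 0.33), and for Tfrc -0.56 (-1.12 to 0.00, limma adjusted p = 0.139). These intervals do not show that the treatments act alike on these genes.

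The enzymes of heme synthesis were examined as a list of 9 genes that includes the members Alas1 and Fech, and 7 were tested. Alas1 had no named probe and Alas2, the erythroid form, did not reach a signal of 150 on 3 arrays. Of the 7, 4 were lower and none higher in each α-LA group, beside 15.7% and 17.7% of all probes lower, and their median changes were -0.39 and -0.45. They included Fech, Uros and Cpox in the early group and Fech, Cpox and Alad in the late group. Cpox, coproporphyrinogen oxidase, had signals of 875, 1010 and 902 on the early and 679, 709 and 871 on the late arrays, and 814 and 838 with TG, against 1764, 1452 and 1362 in control cells. No treated array from 18 h on overlapped the controls, whereas the 6 h array, at 1631, lay among them. The log2 changes of Cpox were -0.71 (limma adjusted p = 0.00135), -1.02 (8.4e-05) and, with TG, -0.88 (0.000203). Alad, which joins the first 2 precursor molecules, passed only in the late group (-0.45, limma adjusted p = 0.0312), and not without the 42 h array (0.0964), the 48 h array (0.133), control replicate 2 (0.0876) or control replicate 3 (0.117). Without the 42 h or the 48 h array the late count was 2 of 7. Uros, uroporphyrinogen synthase, was dim, and only 1 of the 3 early arrays reached a signal of 150 (126 to 159, against 179 to 192 in control cells), so that its early values are close to background. It was lower in the early group (-0.39, limma adjusted p = 0.0159) and higher with TG (0.36, adjusted p = 0.0315), and α-LA minus TG was -0.67 (adjusted p = 0.0038). Its early call was lost without the 30 h array (limma adjusted p = 0.0654), and its TG call without the first TG array (0.301) and without control replicate 2 (0.0709) or 3 (0.0867). Urod and Ppox passed in none of these comparisons.

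**Figure D3:**
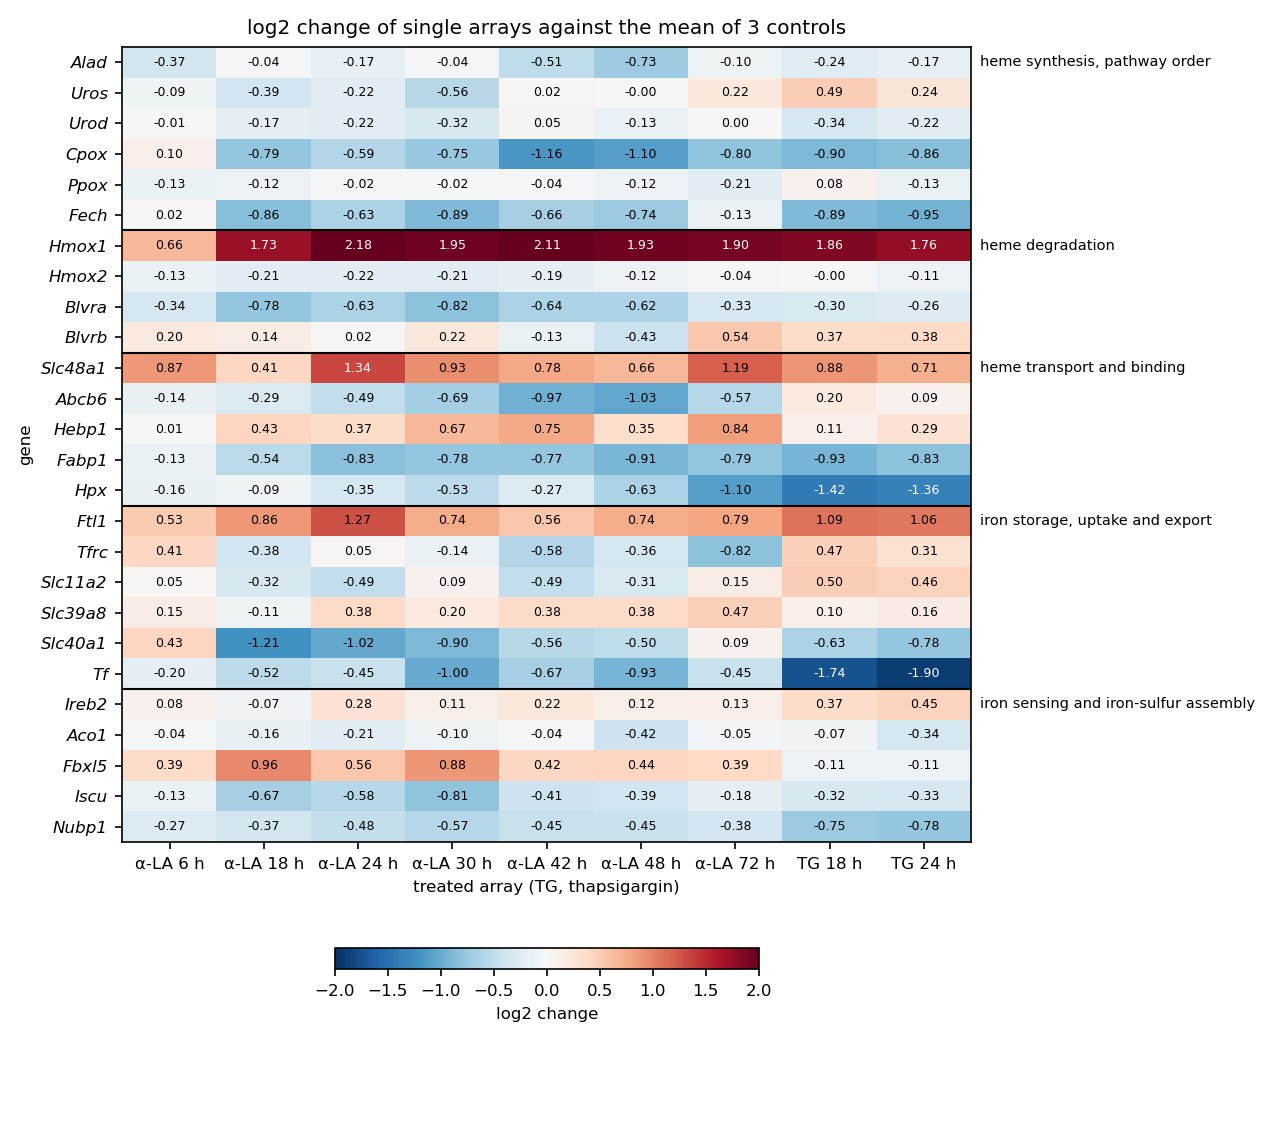
log2 change of each treated array (columns) against the mean of 3 control arrays for genes of heme synthesis, heme degradation, heme transport, iron storage and traffic, and iron sensing and iron-sulfur assembly (rows, 1 probe per gene, for Fech ILMN_1364324). Red is higher and blue lower, with each cell's value printed and the colour scale ending at -2 and 2. Hmox1 reaches 2.18 at 24 h, while Cpox and Fech are near 0 at 6 h and below 0 on every later array.

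Among 15 genes of heme transport and binding, 13 were tested, of which 3 had risen and 4 fallen by the early times and 4 had risen and 3 fallen at the late times, with medians of -0.07 and -0.11. Over all probes, 16.6% were called higher and 15.7% lower early, and 19.1% higher and 17.7% lower late. Slc48a1, which carries heme out of lysosomes, had 713 at 6 h, 520, 991 and 746 early, 671, 618 and 891 late, and 722 and 641 with TG, against 452, 357 and 371 in control cells. All treated arrays were above all controls, from 6 h on, with log2 changes of 0.90, 0.88 and, with TG, 0.80 (limma adjusted p = 0.00673, 0.0064 and 0.0124), the last lost without the first TG array (0.105). Hebp1, a heme-binding protein, was higher with α-LA (0.49 early and 0.65 late, limma adjusted p = 0.0148 and 0.00261) and had a change of 0.20 with TG (adjusted p = 0.318). Abcb6, a porphyrin transporter, was lower with α-LA (-0.49 and -0.86, limma adjusted p = 0.0193 and 0.00055) and had a change of 0.14 with TG (adjusted p = 0.491), and α-LA minus TG was -0.53 (adjusted p = 0.0106). The early call of Abcb6 was lost without the 30 h array (limma adjusted p = 0.0812) and without control replicate 2 (0.0721) or 3 (0.0614), and its difference from TG without the first TG array (0.0948). The early call of Hebp1 was lost without the 30 h array (limma adjusted p = 0.0631). Fabp1, a liver fatty acid binding protein that also binds heme, was under 150 on all late and TG arrays, against 196, 275 and 285 in control cells, and so at least 1.66-fold lower in each (limma adjusted p = 0.000782 late and 0.000478 with TG).

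The list of iron transport and systemic iron regulation held 19 genes, of which 10 were tested. Of these, 2 were lower and none higher in the early group, and 1 was lower and 1 higher in the late group, with medians of 0.03 and 0.01, where 16.6% (early) and 19.1% (late) of all probes were called higher, and 15.7% and 17.7% lower. Slc40a1 encodes ferroportin, the iron exporter. Its signal was 3728 at 6 h, 1199, 1366 and 1486 on the early, and 1886, 1960 and 2945 on the late α-LA arrays, and 1796 and 1614 with TG, against 3038, 2639 and 2656 in control cells. It was thus above the controls at 6 h, below them from 18 to 48 h, and among them again at 72 h. The log2 change was -1.04 early (limma adjusted p = 0.000459) and -0.32 late (adjusted p = 0.136), late minus early was 0.72 (adjusted p = 0.0133), and the TG change was -0.70 (adjusted p = 0.00519). Without the 72 h array the late change was -0.53 and passed (limma adjusted p = 0.0049), and without the second TG array the TG change was -0.63 and did not (0.0599). Tf, transferrin, fell by 0.66 and 0.68 on the log2 scale with α-LA (limma adjusted p = 0.01 and 0.00687) and by 1.82 with TG (adjusted p = 5.32e-06). In the separate fit, α-LA at 18 and 24 h minus TG was 1.33 (limma adjusted p = 0.0002). Slc39a8, a zinc and iron importer, was higher in the late group on its brighter probe (0.41, limma adjusted p = 0.0195) and on the other (0.56, adjusted p = 0.00182), the call of the brighter one being lost without control replicate 1 (0.0695), control replicate 3 (0.051) or the 72 h array (0.0516). Slc11a2, the divalent metal transporter, passed in neither α-LA group but was lower with α-LA than with TG (-0.88, limma adjusted p = 0.0197), a call lost without either TG array (0.12 and 0.105).

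Tf is also a secreted hepatocyte protein. The summed signal of the 11 probed hepatocyte markers, Tf among them, was 64677 to 83749 on the early, 56494 to 78426 on the late and 43566 to 43768 on the TG arrays, against 92926 to 112871 on the control arrays. Of these markers 7 reached 150 on all arrays, and 3 (Apob, Apoh and Hnf4a) were under it on all. For other liver cell types, 4 of 5 probed cholangiocyte markers, 4 of 4 endothelial, 4 of 5 macrophage and 4 of 5 stellate cell markers were under 150 on all arrays. The sum was made up largely of the albumin gene Alb, Tf and Ahsg, and its markers did not move as 1. Alb averaged 21555 early, 18314 late and 7643 with TG, against 36886 in control cells. Fgb and Serpina1 also averaged lower in all 3, with 1384, 1844 and 413 against 3226 for Fgb, and 623, 466 and 885 against 1319 for Serpina1. The late range of Fgb reached that of the controls (highest 2910, against a lowest control of 2879). Ahsg, a secreted glycoprotein, averaged 28122, 23511 and 23394, against 24085, with ranges that overlapped the controls. Ambp, the precursor of a plasma heme-binding protein, averaged 4129, 2567 and 1833, against 986 in control cells, and all these treated arrays lay above the controls. The part of these shifts in the changes of the heme synthesis genes was not tested. In RNA of whole cultures of a single cell line, fewer cells that express a gene and less of its RNA per cell cannot be told apart.

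Of 22 genes of ferritin turnover, iron chaperones and iron-sulfur assembly, 18 were tested, of which 1 was higher and 2 lower early, and 3 higher and 5 lower late, with medians of -0.06 and -0.01. The shares over all probes were 16.6% higher and 15.7% lower early, and 19.1% and 17.7% late, so most of these counts were near or below the background. Fbxl5, the iron-sensing subunit of the ubiquitin ligase that degrades IRP2, had 3467, 2630 and 3280 early, 2382, 2416 and 2343 late, and 1650 and 1652 with TG, against 1958, 1463 and 1988 in control cells. All α-LA arrays were above all controls and the TG arrays were among them, with log2 changes of 0.80 (limma adjusted p = 0.000975), 0.41 (0.0324) and, with TG, -0.11 (0.583). The late call of Fbxl5 was lost without any 1 of the late arrays (limma adjusted p between 0.0554 and 0.0847) and without control replicate 2 (0.138). Iscu, the scaffold on which iron-sulfur clusters are built, was lower in the early group (-0.69, limma adjusted p = 0.000417), less so in the late group (-0.33, adjusted p = 0.027) and with TG (-0.33, adjusted p = 0.0297). Its late minus early difference of 0.36 (limma adjusted p = 0.0396) was lost without any 1 of the late arrays (0.0666, 0.071 and 0.103). It was also lost without the 18 h (0.0746) or 30 h array (0.12) or control replicate 2 (0.0559) or 3 (0.0664). Background subtraction (0.107), a fit of only those groups (0.0779) and a trend and robust limma fit (0.0588) lost it too. The late call of Iscu was lost without the 42 h array (0.0975), the 48 h array (0.0886) or control replicate 2 (0.0954) or 3 (0.0848). The TG call of Iscu was lost without either TG array (0.122 and 0.129) or control replicate 2 (0.0899) or 3 (0.0804). Both calls were also lost with background subtracted (0.0784 late and 0.0767 with TG). Nubp1, a cytosolic assembly factor, was lower in all 3 (-0.48, -0.42 and -0.76, limma adjusted p = 0.00598, 0.00937 and 0.00018).

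Hmox1 transcription is held down by BACH1 and driven by NRF2 (Nfe2l2), each with a small MAF partner, and other stress factors also act on it. Of 10 genes of such regulators, 8 were tested, of which 6 were higher and 1 lower in each α-LA group and with TG, with medians of 0.86, 0.89 and 0.79. Of all probes, 16.6%, 19.1% and 19.2% were called higher in these comparisons, and 15.7%, 17.7% and 18.7% lower. Bach1 and Bach2 did not reach 150 on 3 arrays. Mafk, a small MAF protein, had 1568 at 6 h, 2348, 2437 and 2440 early, 4437, 4624 and 2975 late, and 3295 and 3673 with TG, against 904, 1059 and 952 in control cells. All treated arrays were above all controls, and the late arrays above the early ones (late minus early 0.71, limma adjusted p = 0.0106). Maff, another small MAF protein, had 142 to 151 in control cells, of which 1 of 3 arrays reached 150, so that its changes are set against values near background. It rose by 0.94 and 1.15 and with TG by 1.09 on the log2 scale, and Hif1a by 1.22, 0.96 and 0.60 (limma adjusted p of at most 0.0106 in each). The Hif1a call with TG was lost without the first TG array (limma adjusted p = 0.112). Ddit3, which encodes the ER stress factor CHOP, changed by 2.90, 3.19 and 4.52, and α-LA minus TG was -1.72 (limma adjusted p = 0.000282). Nfe2l2 mRNA itself was the lower one, by -0.42, -0.32 and, with TG, -1.01 (limma adjusted p = 0.0148, 0.048 and 2.84e-05), and its early call was lost without control replicate 1 (0.0572) or the 30 h array (0.0619), and its late call without control replicate 1 (0.165) or 3 (0.106) or any 1 late array (0.0619 to 0.158).

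Other targets of NRF2 were listed as 20 genes, of which 18 were tested. With α-LA, 7 were higher and 3 lower early, and 8 higher and 1 lower late, with medians of 0.03 and 0.30. Of all probes, 16.6% were higher and 15.7% lower early, and 19.1% higher and 17.7% lower late. With TG, 2 were higher and 9 lower (19.2% of all probes higher and 18.7% lower), with a median of -0.37, and α-LA minus TG was higher for 7 and lower for none (12.8% and 12% of all probes). The genes described next were picked for the largest change with α-LA, and not all targets were higher in the early and late groups. Gsta2 averaged 1815 early and 2273 late, against 3390 in control cells, and Nqo1 4491 and 6578, against 6502. The late Nqo1 arrays ranged from 4590 to 10024. On the single 6 h array, without a test, Gsta2 was at 4685 and Nqo1 at 10352, above the highest controls of 3531 and 7372. Osgin1, an oxidative stress response gene, had 2915 at 6 h, 3088, 2528 and 2797 early and 2829, 3115 and 2738 late, and 1461 and 1481 with TG, against 1377, 1470 and 1402 in control cells. It was raised on every α-LA array including that of 6 h and lay close to the controls on both TG arrays, with log2 changes of 0.98, 1.03 and, with TG, 0.05 (limma adjusted p = 3.47e-05, 1.27e-05 and 0.73), and α-LA minus TG was 0.93 (adjusted p = 0.000638). Abcc2, an organic anion transporter that exports conjugated bilirubin, was also higher with α-LA than with TG (1.42, 1.20 and, with TG, 0.35, limma adjusted p = 1.42e-05, 2.27e-05 and 0.0534, α-LA minus TG 1.11, adjusted p = 0.000239). Its TG signals of 716 and 683 lay above all controls (503 to 589), and the TG change passed when only those groups were fitted (limma adjusted p = 0.0163) and without control replicate 1 (0.047), the 48 h array (0.0205) or the 72 h array (0.0473). Sqstm1, an autophagy receptor, rose by 1.76 and 1.98, and by 2.76 with TG, on its brightest probe. Another of its 3 probes gave 0.81 early and 1.65 with TG, and the third, ILMN_1375496, gave -0.21, -0.29 and, with TG, 0.66, so that its probes disagreed.

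**Figure D4:**
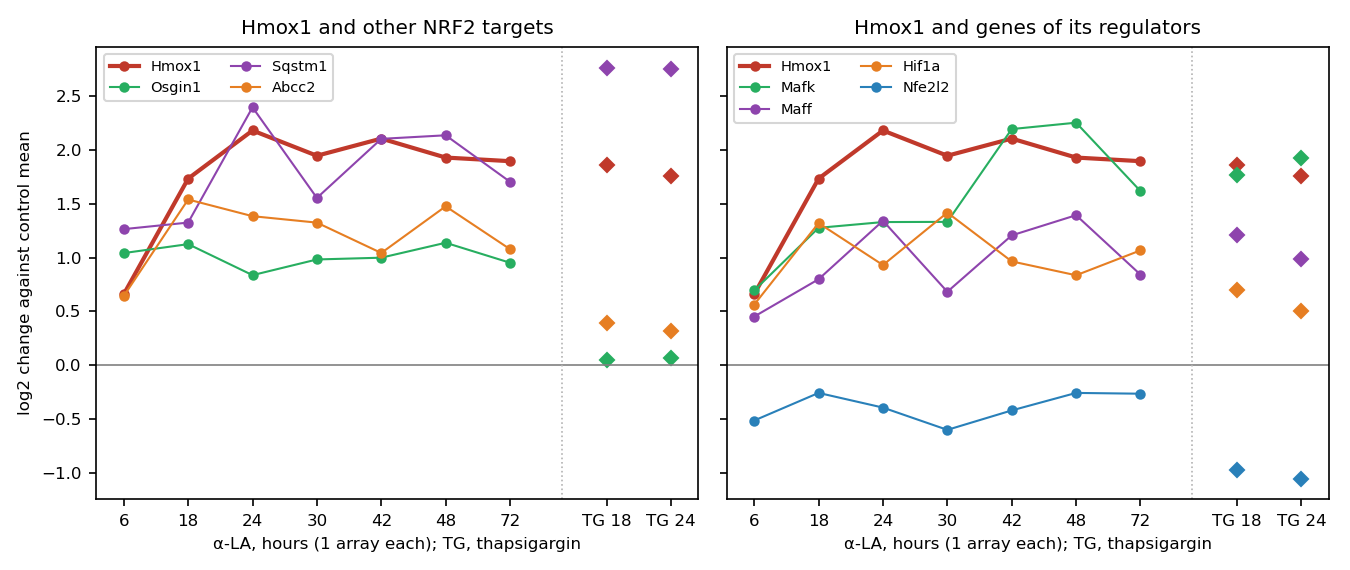
log2 change against the mean of 3 control arrays (vertical axis) on the 7 α-LA arrays in time order and the 2 TG arrays (diamonds), for Hmox1 with 3 other NRF2 targets (left) and with genes of its regulators (right). Osgin1 lies near 1 on every α-LA array and near 0 with TG, whereas Hmox1 lies between 1.73 and 2.18 on the α-LA arrays from 18 h on and at 1.86 and 1.76 with TG.

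The genes whose change was most like that of Hmox1 were found by the mean absolute difference in log2 change over the 9 treated arrays, among 6703 named probes. Renbp, which encodes a renin-binding protein with epimerase activity, was the closest (0.167), followed by the sulfotransferase Sult1c2 (0.229), the cytokine receptor Tnfrsf12a (0.249), the transcription factor Nfil3 (0.314) and the enolase Eno2 (0.320). Renbp reached 1.35-fold of the control mean at 6 h, between 4.05-fold and 4.89-fold on the later α-LA arrays, and 3.15-fold and 3.17-fold with TG, beside 1.58-fold, 3.33-fold to 4.54-fold, and 3.63-fold and 3.38-fold for Hmox1.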

How the data were processed

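RNA from FaO cells was profiled on 12 Illumina RatRef-12 arrays. The authors read the arrays with BeadStudio 3.0.19.0 and quantile-normalized them in BRB-ArrayTools. The deposited value table holds linear intensities for 22523 probes, background included, from 88.3 to 55971 with a median near 133 on every array. A table before normalization has 24 columns that match no sample and was not used. Arrays carry no counts, and their number limits the precision. Probes were named from the platform annotation (13793 probes), and 9 list genes from the study's gene table. Log2 signals of the 9193 probes with 150 or more on at least 3 arrays (8409 to 8422 per array) were tested with limma 3.58.1 in R 4.3.3, with Benjamini-Hochberg adjustment. Late and early α-LA, and TG, were fitted with the controls, and the 6 h array entered no test. The models and counts were tested on simulated data. Several probes of a member were kept apart, and the brightest probe stood for other genes. All members were named, with the 4 most changed genes of each list by α-LA from 18 h on, the 5 nearest to Hmox1 and, chosen after their values were seen, Hmox2, Hpx, Uros, Urod, Ppox and Nfe2l2. Single hepatocyte markers (Alb, Fgb, Serpina1, Ahsg and Ambp) and the NRF2 targets Gsta2 and Nqo1 were also named after their values were seen. Some genes that this rule names are not reported here. Members, lists and the detection limit were chosen with earlier results of these data known. Alternatives were other filters, background subtraction, cyclic loess, centring, other fits and leaving out each array.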

Additional observations from a re-analysis of the deposited data

Results flagged for a closer look

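Among the 6 α-LA arrays from 18 h on, the highest array stood apart for 3 member probes, by its gap to the next array as a share of the whole range. The shares were 0.629 for Blvra (72 h, 429 against at most 351 on the others), 0.628 for Ftl1 (24 h, 23444 against at most 17710) and 0.722 for Fech on ILMN_1364324 (72 h, 1200 against at most 843). Each passed the 95% critical value of Dixon's test, which chance passes in about 1 in 20 groups, and these arrays are different times rather than replicates. Blvra was lower with α-LA at 18 and 24 h than with TG by a log2 difference of -0.42, and it was the only member to pass that comparison. The single 6 h array, which entered no test, lay above every control array for Hmox1 (1.58-fold of the control mean) and Ftl1 (1.44-fold).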

How the results depend on the processing

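Late against early α-LA called 1256 probes, 818 with the 25th percentile of each array subtracted, 829 when only those groups were fitted, and 704 to 1271 when 1 array was left out (704 without 42 h, 784 without 48 h). TG against control called 3484 probes, and 2306 to 3702 with 1 array left out (2306 without the first TG array). α-LA at 18 and 24 h against TG called 2286 probes, and 942 to 2551 with 1 array left out (942 without the first and 1031 without the second TG array). The member probes called in that comparison were 1, 2 when only those groups were fitted, and 0 to 2 with 1 array left out, where Tfrc was the gained and Blvra the lost call. The enzymes of heme synthesis called lower in the late group were 4, 2 with background subtracted, and 2 without either 42 or 48 h. Of the member values under all alternatives, 913 kept their side of the threshold, 19 lost the call and 6 gained it. None that passed in either fit changed direction, whereas changes of sign among values that passed in neither were not counted. Besides the losses given above, the late call of Tfrc was lost with no filter on dim probes (limma adjusted p = 0.0646), with background subtracted (0.0803) and without the 30 h array. That of the brighter Fech probe was lost with background subtracted (limma adjusted p = 0.071). Background subtraction also lost the early calls of Nfe2l2 (0.0543) and Abcb6 (0.0607), and the TG call of Uros (0.193). It lost the late calls of Nfe2l2 (0.118), Alad (0.0666) and Fbxl5 (0.0811). The differences of Slc11a2 (0.0672) and Abcb6 (0.0524) from TG were lost as well. For Nfe2l2 the late call was also lost with no filter on dim probes (0.0603), a trend and robust fit (0.0622) or without the 24 h array (0.0511). Blvra with TG passed under cyclic loess (-0.31, limma adjusted p = 0.0441), when only those groups were fitted (0.0287) and without the 72 h array (0.0332). The differences of Hmox1 from other members were recomputed with background subtracted, with cyclic loess and with each array left out, and kept their direction in all of these. As all of them share the Hmox1 signal, this is not a separate result about the other members, and the difference for Fth1 still has no reading. No paired analysis was possible because the labels number only the control replicates. Quantile normalization holds the summed signal of every array equal and flattens the brightest probes, and dim probes such as Aco1 carry background that shrinks their fold changes.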

Other observations

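Hemopexin (Hpx), the plasma protein that carries free heme, differed between the α-LA and the TG arrays. Each agent was given at a single dose and the hours of TG are not settled, so agent, dose and time cannot be told apart. Its signal was 6008, 4993 and 4418 on the early and 5306, 4136 and 2981 on the late α-LA arrays, and 2383 and 2491 with TG, against 6522, 6796 and 5857 in control cells. The 72 h array was the lowest of the α-LA arrays, and both TG arrays lay below all others. The log2 change was -0.32 early (limma adjusted p = 0.213), -0.66 late (adjusted p = 0.0139) and -1.39 with TG (adjusted p = 9.47e-05), and α-LA at 18 and 24 h minus TG was 1.17 (adjusted p = 0.000263). The late call was lost without control replicate 2 (-0.62, limma adjusted p = 0.0519).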
